A study of Mus musculus with 4 samples.

Results

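The YTH-domain proteins are the best known readers of N6-methyladenosine (m6A), and the mouse genome encodes 5 of them, Ythdf1, Ythdf2, Ythdf3, Ythdc1 and Ythdc2. The binding of IGF2BP3 along the transcripts of these 5 genes was examined in eCLIP-seq data of mouse testes. A cluster of reads was given to a gene when its centre lay inside the span of the gene in GENCODE M21 (mm10), on the strand of the gene. By this rule 191 of 337234 clusters in replicate 1 and 133 of 216354 clusters in replicate 2 belonged to the 5 genes. Testes came from wild type C57BL/6 male mice aged 8 weeks, and no treatment group was compared. The suspension of testicular cells, germ cells and somatic cells together, was crosslinked with UV light (254 nm, 400 mJ/cm2 per exposure) and RNA was fragmented with RNase. Each of 2 replicates paired an immunoprecipitate with an antibody against IGF2BP3 (IP) with a size-matched input (SMInput), lysate RNA that did not go through the immunoprecipitation, which made 4 samples. The design text also names an IgG control, which was not analysed here.

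Methylation of adenosine is written into mRNA by the METTL3 and METTL14 complex, removed by FTO and ALKBH5, and read by proteins that bind the modified base. YTHDF1, YTHDF2 and YTHDF3 act in the cytoplasm on translation and decay of mRNA, YTHDC1 acts in the nucleus on splicing and export, and YTHDC2 is an RNA helicase that germ cells need to enter and pass through meiosis. IGF2BP3 is an RNA-binding protein of the IGF2BP family, which is itself counted among the m6A readers.

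For each cluster the deposited log2(fold change) compares IP with SMInput reads after scaling to the libraries, and the −log10(P value) is that of the same reads, by chi-square or, for low numbers, by Fisher's exact test. A cluster with both values of at least 2 was called significant. The library totals that return the listed values as whole reads were 5133438 IP and 8706391 SMInput reads in replicate 1, and 4637612 IP and 16696122 SMInput reads in replicate 2. The reads of a single cluster were recovered in the same way, and 95% intervals on a fold change are exact Clopper-Pearson intervals that cover counting error only. The P value of a cluster compares 2 libraries, and no test across the 2 replicates was run.

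All 5 genes held at least 1 significant cluster in each replicate, beside 46.0% of the 12271 protein-coding genes with clusters in both replicates that did so in replicate 1, 64.6% in replicate 2 and 39.0% in each of them. In replicate 1, 18 of the 191 clusters were significant (9.42%, 95% Wilson interval 6.04 to 14.4%), beside 4.92% of all clusters. In replicate 2, 27 of the 133 clusters were significant (20.3%, interval 14.3 to 27.9%), beside 13.2% of all clusters. The difference from all clusters was not tested, since clusters of a gene share its RNA and are not replicates. The Wilson intervals treat clusters as independent and are no test. Ythdc2 held the most significant clusters in each replicate, 8 and 9, and without it the share in the other genes was 6.85% in replicate 1 and 16.2% in replicate 2. The median log2(fold change) over the clusters of the 5 genes was 1.35 in replicate 1 and 1.49 in replicate 2, and over all clusters it was 1.50 and 1.53. This order differed by region. In the 3′UTR the medians of the 5 genes were 2.04 and 2.27, above those of all clusters, 1.76 and 1.85. In introns they were 1.50 and 1.43, below those of all clusters, 2.08 and 1.85. The genes differed here. Ythdf3 held 53 of the 118 and 41 of the 73 intron clusters, with medians of 0.76 and 0.85. Ythdf1 (1.18 and 0.74) and Ythdc1 (1.76 and 1.53) were also below all clusters. Ythdf2 was below in replicate 1 (1.93) and above in replicate 2 (2.25), and Ythdc2 was above in both (2.35 and 2.43). In coding sequence the medians of the 5 genes were 1.08 and 1.19, beside 0.76 and 0.93. In 5′UTRs, over 5 and 6 clusters, they were 0.59 and −0.41, below those of all clusters, 0.76 and 0.98. These values are ratios of IP to SMInput and do not measure the amount of RNA. For that amount, fewer cells of a type and less RNA per cell cannot be told apart in these bulk samples.

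The significant clusters lay mainly in the 3′UTR in replicate 1, where 14 of 18 (77.8%, interval 54.8 to 91%) were in this region, beside 43.2% of all significant clusters. In replicate 2 the share was 13 of 27 (48.1%, interval 30.7 to 66%), beside 36.6% of all. These intervals also treat clusters as independent, though 8 of the 14 and 5 of the 13 were in Ythdc2 alone. Read within the region, 14 of 29 3′UTR clusters of the genes were significant in replicate 1 (48.3%) and 13 of 22 in replicate 2 (59.1%), while 19.4% and 34.5% of all 3′UTR clusters passed. Without Ythdc2 these shares were 31.6% of 19 clusters and 47.1% of 17 clusters. In coding sequence (CDS), 2 of 39 and 5 of 32 clusters were significant, beside 5.28% and 7.96% of all CDS clusters. In introns, 2 of 118 and 9 of 73 clusters were significant, beside 1.94% and 10.8% of all intron clusters. In percentage points the widest gaps from all clusters were thus in the 3′UTR, while in replicate 2 the CDS (15.6% against 7.96%) had the wider gap as a ratio. These gaps were not tested. In 5′UTRs 0 of 5 and 0 of 6 clusters were significant, beside 5.09% and 8.63% of all 5′UTR clusters. No cluster lay on the opposite strand inside any of the 5 genes in either replicate.

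Many of these calls rest on few reads. The significant clusters held 7 to 36 IP reads in replicate 1, with a median of 14, and 4 to 30 in replicate 2, with a median of 8. In replicate 2, 17 of the 27 held fewer than 10 IP reads, against 2 of 18 in replicate 1. Over all significant clusters, 62% in replicate 2 and 29.1% in replicate 1 held so few. The lower bound of the interval of the fold change passed the threshold of 2 on the log2 scale for 0 of the 18 in replicate 1 and 3 of the 27 in replicate 2.

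Across 49 pairs of clusters of the 5 genes that overlapped on the same strand, the log2(fold change) values of the replicates were correlated (Pearson's r = 0.71, Spearman's rho = 0.71, n = 49 pairs). Within single genes Pearson's r ran from 0.40 in Ythdf3 (13 pairs, Spearman's rho 0.12) to 0.91 in Ythdf1 (6 pairs). These values describe clusters that share genes and libraries, and are no test. Of the significant clusters, 8 of 18 in replicate 1 (44.4%) overlapped a significant cluster of replicate 2, and 7 of 27 in replicate 2 (25.9%) overlapped a significant cluster of replicate 1. Over all significant clusters these shares were 33.0% and 18.5%. Significant clusters that overlapped a significant cluster of the other replicate were joined where they touched. This gave 6 sites significant in both replicates, in 4 of the 5 genes. Such a site was present in 16.6% of the 12271 protein-coding genes with clusters in both replicates. Among the 4039 genes with at least 14 clusters in replicate 1 and 17 in replicate 2, the fewest that any of the 5 genes had, it was present in 29.6%, a comparison chosen after the data were seen.

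**Figure D1:**
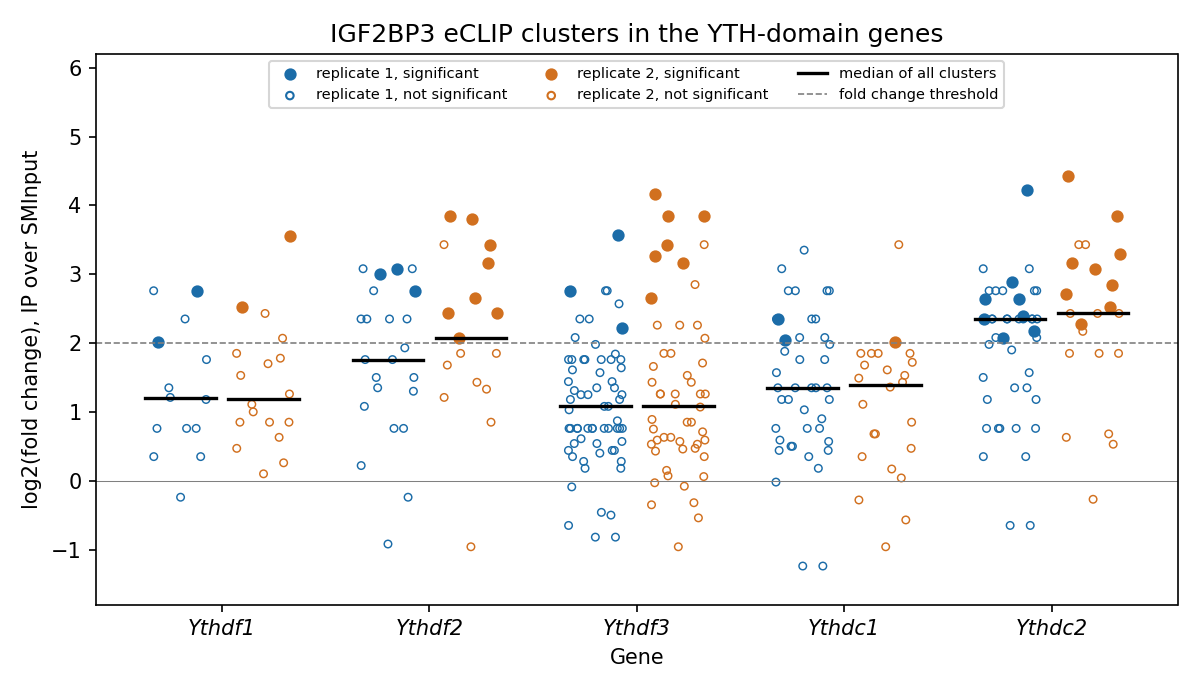
Each point is a cluster in the gene named on the horizontal axis, with its log2(fold change) of IP over SMInput on the vertical axis; filled points are significant, bars are medians over the clusters of a gene in 1 replicate, and the dashed line is the fold change threshold. Ythdc2 had the highest medians, 2.35 and 2.43, and Ythdf3 the lowest, 1.08 and 1.09.

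Ythdf1, which promotes translation of methylated mRNA, was the gene without a site significant in both replicates. It lies on chromosome 2 at 180904377 to 180920949 on the minus strand, with 14 clusters in replicate 1 and 18 in replicate 2. The median log2(fold change) was 1.19 in each. All of its 2 and 2 significant clusters were in the 3′UTR of 1265 bases. In replicate 2, 1 of the 2 held at least 10 IP reads. When clusters were instead given to the gene whose transcription start was closest, whatever its strand, all of these significant clusters went to the microRNA gene Mir124a-3 and Ythdf1 had 0 in either replicate, while most of its other clusters stayed with it. The cluster with the most IP reads in replicate 1, at 180905100 to 180905204, had 24 IP and 6 SMInput reads and a log2(fold change) of 2.76 (interval 1.43 to 4.34). The cluster of replicate 2 that overlapped it by 3 bases had 7 and 6 reads, a log2(fold change) of 2.07 and a −log10(P value) of 1.95, just under the threshold. In replicate 2 the significant cluster with the most IP reads, at 180905469 to 180905524, had 13 IP and 4 SMInput reads and a log2(fold change) of 3.55 (interval 1.85 to 5.62), and no cluster of replicate 1 overlapped it. The other significant cluster of replicate 1, at 180904895 to 180904960, had a log2(fold change) of 2.01 and shared 63 bases with a cluster of replicate 2 at 1.78 (interval 0.82 to 2.73; −log10(P value) 4.21), which missed the fold change threshold alone.

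Ythdf2, which brings methylated mRNA to deadenylation and decay, held 2 sites significant in both replicates. The gene lies on chromosome 4 at 132184912 to 132212303 on the minus strand. It had 23 clusters in replicate 1, of which 3 were significant, and 17 in replicate 2, of which 8 were significant. Of these 8, 2 held at least 10 IP reads and 5 were centred in an exon. The median log2(fold change) was 1.76 and 2.08. The stronger site, at 132205586 to 132205655, lay in the coding sequence of exon 4 of 5. Its log2(fold change) was 3.01 in replicate 1 (interval 1.42 to 5.03; 19 IP and 4 SMInput reads). In replicate 2 it was 3.80 (interval 2.56 to 5.24; 27 IP and 7 SMInput reads), and a significant cluster of 3.43 with 6 IP reads touched it there, at 132205656 to 132205681, without overlap in replicate 1. This site had the highest −log10(P value) among the clusters of the 5 genes in replicate 2, 14.7, and it was the site that remained with both thresholds at 3. The other site, at 132186097 to 132186151, lay in the 3′UTR, centred 800 bases after the stop codon. Its log2(fold change) in replicate 1 was 2.76 (interval 0.87 to 5.23), from 12 IP and 3 SMInput reads. In replicate 2 it was 2.43 (interval 0.78 to 4.20), from 9 IP and 6 SMInput reads. With a minimum of 10 IP reads this site was therefore not shared. The intervals of the replicates overlapped at both sites.

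Ythdf3, which works with the other cytoplasmic YTHDF proteins, had the most clusters, 67 in replicate 1 and 52 in replicate 2, and the lowest medians, 1.08 and 1.09. It lies on chromosome 3 at 16183212 to 16217037 on the plus strand. Only 3 and 7 of its clusters were significant, or 4.48% and 13.5%, near the share of all clusters. Of these, 1 in each replicate held at least 10 IP reads, and 1 and 2 were centred in an exon. Its 1 shared site, at 16186405 to 16186444, lay in intron 2. In replicate 1 the site held 2 touching clusters with log2(fold change) values of 3.57 (7 IP reads and 1 SMInput read) and 2.76 (8 IP and 2 SMInput reads). In replicate 2 a cluster with 5 IP and 2 SMInput reads had a log2(fold change) of 3.17 (interval 0.56 to 6.56). These are low reads, and with Benjamini-Hochberg adjustment over all clusters of a replicate the smaller adjusted P of the site was 0.0847 in replicate 1 and 0.0453 in replicate 2. The site therefore did not pass an adjusted P of 0.05 in replicate 1, where 0 clusters of Ythdf3 did with the fold change threshold kept. In the 3′UTR of 3059 bases, the longest among the 5 genes, 1 of 9 clusters in replicate 1 and 2 of 5 in replicate 2 were significant, and these did not overlap.

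Ythdc1, the nuclear reader, carried its significant clusters in a single stretch of the 3′UTR. The gene lies on chromosome 5 at 86804221 to 86836659 on the plus strand, with 42 clusters in replicate 1 and 24 in replicate 2. Of these, 2 and 1 were significant, and the median log2(fold change) was 1.35 and 1.40. The shared site, at 86836164 to 86836257, lay in the last of 17 exons, and the bases that both replicates shared were centred 318 bases after the stop codon. Its log2(fold change) was 2.35 in replicate 1 (interval 1.37 to 3.43; 36 IP and 12 SMInput reads) and 2.01 in replicate 2 (interval 1.18 to 2.85; 28 IP and 25 SMInput reads). It had the most IP reads of any significant cluster of the 5 genes in replicate 1, and in replicate 2 it stood just above the fold change threshold. The next cluster downstream, significant in replicate 1 at 2.04, reached 1.85 in replicate 2. In the CDS, 0 of 11 and 0 of 8 clusters were significant, with medians of 0.50 and 0.57. The non-coding gene Gm43055 overlaps the start of Ythdc1 on the same strand, so 21 clusters in replicate 1 and 9 in replicate 2 could belong to either gene. The shared site lies outside Gm43055.

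Ythdc2, the meiotic helicase, had the most significant 3′UTR clusters of the 5 genes in each replicate, in number and per kb. The gene lies on chromosome 18 at 44827746 to 44889724 on the plus strand, with 45 clusters in replicate 1 and 22 in replicate 2. The median log2(fold change) was 2.35 and 2.43, the highest among the 5 genes. These were also the medians of its intron clusters, which held a median of 3 IP reads in each replicate. In the CDS its medians were 1.18 and 1.85, below those of Ythdf2, 3.01 and 2.56. In the 3′UTR of 1936 bases, 8 of 10 clusters in replicate 1 and 5 of 5 in replicate 2 were significant, which is 4.13 and 2.58 significant clusters per kb. With Benjamini-Hochberg adjustment over all clusters, 5 of the 8 passed an adjusted P of 0.05 in replicate 1. In replicate 2, 5 of the 9 significant clusters of the gene held at least 10 IP reads. For comparison, the 3′UTRs of all 5 genes held 1.55 and 1.44 per kb. The median log2(fold change) of its 3′UTR clusters was 2.37 and 2.85, and in replicate 1 that of Ythdf1, over 2 clusters, was 2.39. In replicate 1 all 8 significant clusters of the gene were in this region, while replicate 2 added 3 in the CDS and 1 in an intron, with 4 to 8 IP reads each. The first shared site, at 44888107 to 44888260, held 2 clusters in each replicate, with log2(fold change) values of 2.40 and 2.18 in replicate 1 and of 2.28 and 3.30 in replicate 2. The last of these had a −log10(P value) of 14.2 from 30 IP and 11 SMInput reads. The second shared site, at 44889288 to 44889351, had a log2(fold change) of 2.88 (interval 1.01 to 5.33) in replicate 1 and 2.72 (interval 1.16 to 4.44) in replicate 2. A further stretch at 44888809 to 44888869 was significant in replicate 2 at 2.85 and reached 1.90 in replicate 1. Enrichment was thus spread along the 3′UTR rather than held at 1 place.

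**Figure D2:**
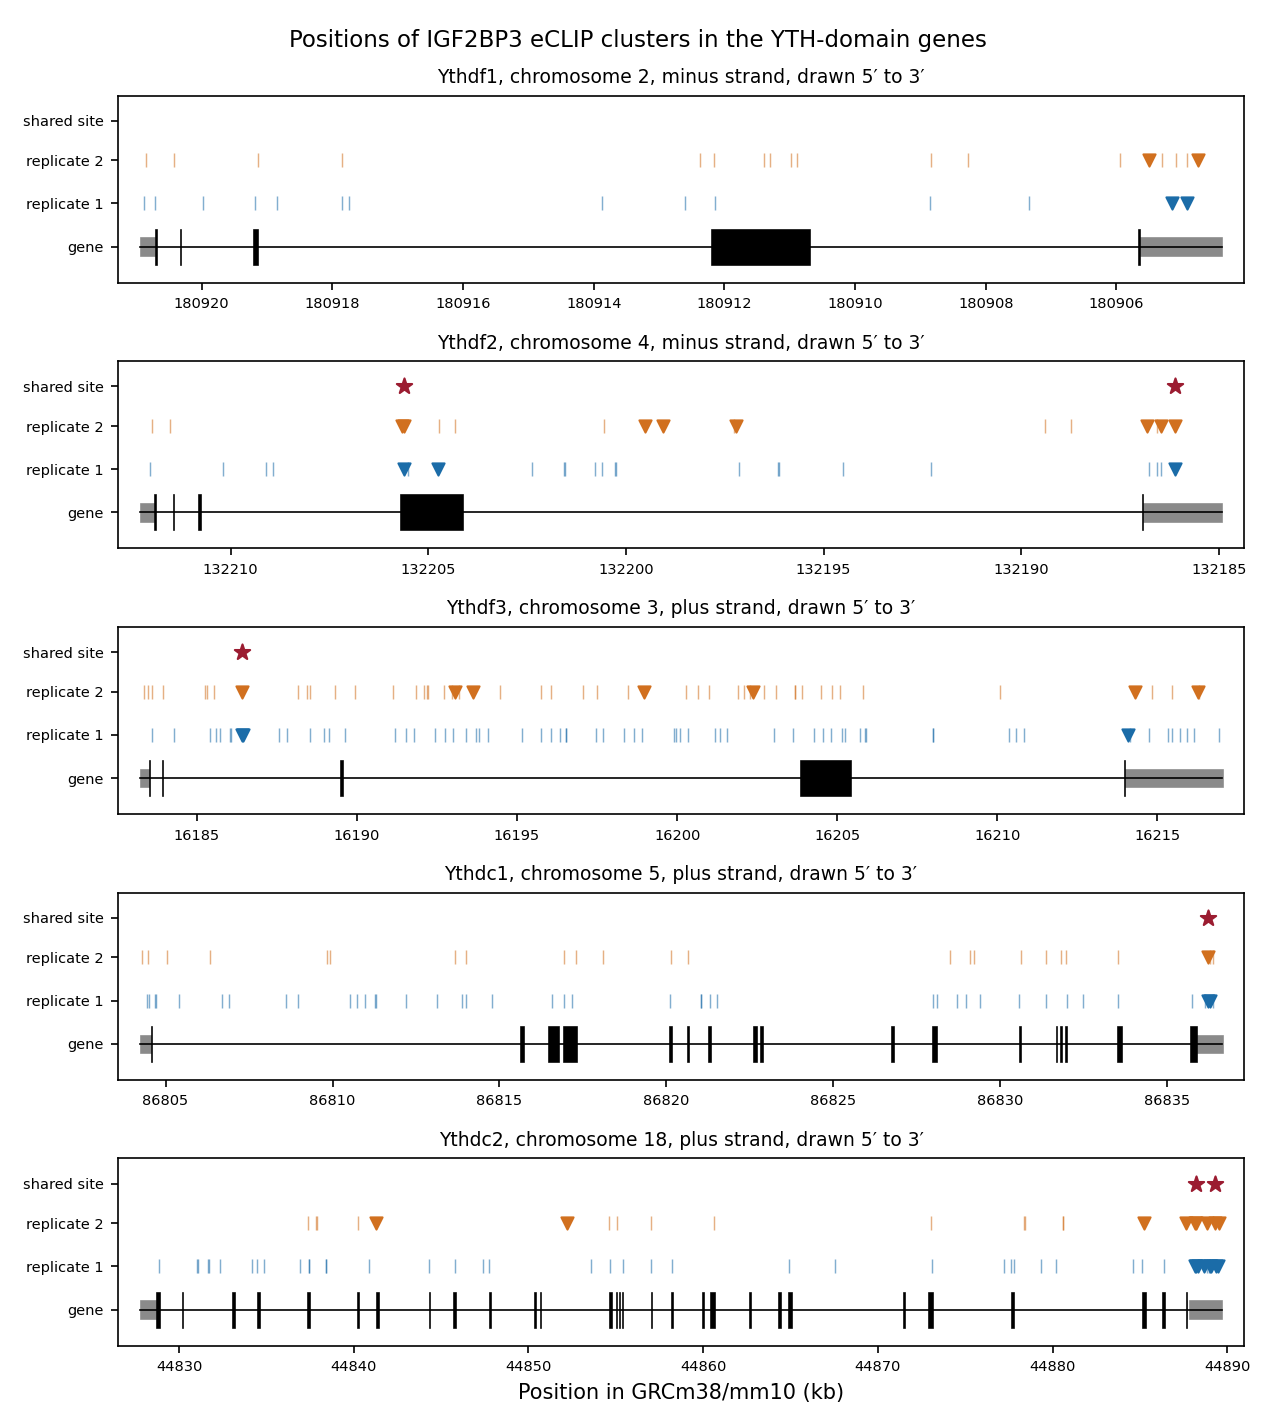
Position along each gene in kb of GRCm38/mm10, drawn 5′ to 3′, with coding exons as tall black boxes, UTRs as low grey boxes, clusters that were not significant as ticks, significant clusters as triangles and sites significant in both replicates as stars. Stars stand in 4 of the 5 genes, and 4 of the 6 stars lie in 3′UTRs.

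Other genes of the m6A pathway and partners of the YTH proteins were read from a list of 28 genes, of which 27 had clusters in both replicates. A site significant in both replicates was present in 6 of the 27 (22.2%), beside 16.6% of all protein-coding genes with clusters in both. Over the list, 6.22% and 12.1% of clusters were significant in replicates 1 and 2, close to the shares of all clusters. Among the writers 1 of 9 genes had such a site. This was Cbll1, the HAKAI subunit of the writer complex, with log2(fold change) values of 4.55 and 3.85 at a CDS site. Of the erasers, Alkbh5 held 4 shared sites, the strongest in the 3′UTR at 3.72 and 3.75. Fto had 4 significant clusters of 246 in replicate 1 and 13 of 126 in replicate 2, and no shared site. Of these significant clusters 1 and 3 were in the 3′UTR. The shares in Fto were below those of all clusters, 4.92% and 13.2%, and near those of all intron clusters, 1.94% and 10.8%. Among the other readers, Prrc2a reached 2.95 and 3.16 at a CDS site, and Fmr1, the fragile X protein, reached 2.35 and 2.79 in the 3′UTR. Of the partners, Rbm46, a germ cell RNA-binding protein of the complex of YTHDC2 and MEIOC, reached 2.86 and 2.56 in the CDS. Cnot1, the scaffold of the deadenylase that YTHDF2 recruits, reached 2.43 and 2.43 in the CDS. Meioc itself had 5 and 2 significant clusters but no shared site. Mettl3 had 6 clusters in each replicate and 0 significant.

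The genes most like each member were found by the distance between medians of log2(fold change) in 3′UTR, CDS and intron clusters of both replicates, which are 6 values, over 3160 other genes that had them. Ythdc1 had the nearest neighbours, Trim37 at a distance of 0.22 and Dcaf5 at 0.27. Ythdf1 was nearest to Dnajb4 (0.32) and Gpcpd1 (0.57), and Ythdc2 to 4921539E11Rik (0.43) and N4bp1 (0.50). Ythdf3 was nearest to Tbpl1 and Pafah1b1, both at 0.64. Ythdf2 had no close neighbour, with Aar2 at 1.02 and Tab3 at 1.12. A median needed at least 2 clusters, and many rest on few. The fewest behind any of the 6 medians of a member were 2 in Ythdf1, 3 in Ythdf2 and in Ythdc1, 4 in Ythdf3 and 5 in Ythdc2.

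The tissue was checked with marker genes. In both replicates clusters were found in 6 of 6 markers of spermatids, 5 of 5 of spermatocytes, 4 of 4 of spermatogonia and 5 of 5 of Leydig cells. Of 5 Sertoli cell markers, 5 had clusters in replicate 1 and 4 in replicate 2, where Rhox5 had none. The markers of liver, pancreas and heart, Alb, Ins2 and Myh6, had 0 clusters in either replicate. Germ cells and somatic cells were thus both in the lysate, and which of them the clusters of the YTH genes came from was not tested.

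To show what was bound, 30 bases of the genome at the middle of the bases shared by the replicates are given for 4 sites, read 5′ to 3′ on the strand of the gene from GRCm38. Capitals mark GGAC, the core of a common m6A sequence, which was chosen after the sequences were seen. Each run occurs at 1 place in the genome. The Ythdf2 CDS site is chr4:132205603-132205632 on the minus strand, the Ythdf2 3′UTR site is chr4:132186110-132186139 on the minus strand, the Ythdf3 intron site is chr3:16186409-16186438 on the plus strand and the Ythdc1 3′UTR site is chr5:86836212-86836241 on the plus strand.
Ythdf2 CDS: agctgcttggtctactggaggtgacacagc
Ythdf2 3′UTR: ccaatgaggaaagggcattgcctttctttt
Ythdf3 intron: ttttggtttacttatttagttctttttttt
Ythdc1 3′UTR: ttgtttgtttgttctccttttGGACcttgg
Of the 4 sequences, 1 held GGAC. Within 100 bases around the cluster centres, GGAC was also present at the Ythdf2 CDS site in both replicates. The 2 shared sites of Ythdc2 are not printed, and the 100 bases around their clusters held no GGAC in either replicate.

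Motifs were searched in the 100 bases around each cluster centre, on the sense strand alone. GGAC was present in 2 of the 14 significant 3′UTR clusters of the 5 genes in replicate 1 and 3 of 13 in replicate 2, beside 25.1% and 23.3% of all significant 3′UTR windows. The 2 in replicate 1 were touching clusters of Ythdc1, whose windows overlap and hold the same GGAC. The longer GGACT, which contains GGAC, was present in 0 of the 14 and 1 of the 13 windows, beside 10.4% and 9.76% of all. GAACA was present in 1 and 1 of the 3′UTR windows, beside 8.29% and 7.69%, and AAACC in 0 and 0, beside 8.74% and 8.46%. In CDS windows of the 5 genes GGAC was present in 2 of 2 in replicate 1 and 1 of 5 in replicate 2, beside 29.7% and 29.4% of all significant CDS windows. GAACA and AAACC were each present in 0 of 2 and 1 of 5 CDS windows. Of all significant CDS windows, 10.5% and 10.7% held GAACA, and 9.61% and 8.49% held AAACC. In intron windows GGAC was present in 0 of 2 and 2 of 9, beside 23.1% and 21.1%, and GAACA in 1 of 2 and 2 of 9, beside 8.58% and 7.85%. The GAACA window of replicate 1 and 1 of those of replicate 2 lay at the shared intron site of Ythdf3. The numbers of windows are small, and no difference was tested. No m6A measurement was part of these values, so the letters say nothing of whether a site was methylated.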

How the data were processed

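The authors trimmed reads (cutadapt), removed rRNA reads (Bowtie2), aligned to mm10 (STAR), collapsed PCR duplicates by UMI and called clusters on each IP with Clipper, without pooling replicates. The deposited −log10 P values are the authors' comparison of IP and SMInput reads per cluster, listed as 0 at log2 fold changes of 0 or below and for some clusters up to 0.18, and as 400 at most. The deposited log2 fold changes are scaled to library totals. Totals and reads were recovered from these values (1 solution for 98.9% and 99.2% of clusters between 0 and 400, within a relative 1e-11 of the ratio and 5e-05 of the −log10 P value, absolute below 1; tested on simulated data), with Fisher's exact test where an observed or expected number was below 5. Regions came from basic transcripts of GENCODE M21, 3′UTR first. Members and lists were chosen with earlier results of these data known. Named were all 5 members, every site significant in both replicates or else the significant cluster with the most IP reads, listed genes with a shared site (at most 8), and the 2 genes most like each member; Meioc, Mettl3, Fto, Gm43055, Mir124a-3 and the other clusters described were named after their values were seen. No cluster ran past a chromosome end. Alternatives covered thresholds, adjustment, reads, gene rule, overlap and each replicate alone. Python 3.11.15, pandas 2.3.3, SciPy 1.17.1 and pysam 0.24.0 were used.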

Additional observations from a re-analysis of the deposited data

How the results depend on the processing

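No paired analysis was possible beyond that in the deposited values, because each already compares an IP with the SMInput of its own replicate. The comparisons of IP with SMInput used here are therefore all paired, and no unpaired fit was left to block. A test across the 2 pairs was left out by choice, not because the design ruled it out, and no estimate over them was made. With both thresholds at 3, the 5 genes had 2 and 5 significant clusters and 1 shared site in 1 gene, 2 listed genes had a shared site, and the 3′UTR share was 50% and 80%, over few clusters. Ythdf1 and Ythdf3 then had 0 in replicate 1 and Ythdc1 0 in either, and Ythdf1 had 0 in either by the closest transcription start. With both at 1, there were 67 and 66 clusters and 15 shared sites. At 10 or more IP reads, 10 clusters remained in replicate 2, and 4 sites in 3 genes were shared. The median log2 fold change was then 2.01 in each replicate. Clusters listed with a −log10 P value of 0, 17 and 12 in the replicates, had low fold changes and no recovered reads. This filter dropped them whatever their reads, so the rise of the median is partly built in. Without Ythdc2, an alternative chosen after seeing the data, replicate 1 had 10 significant clusters. Taken from a single replicate, sites numbered 15 to 25 and listed genes with a significant cluster 17 to 22. Of 54 alternative values, 36 stayed within 1.5 times a count, or the spread or interval of a share or median. For single genes, 38 of 70 did. Of the 54 values 0 reversed, but counts and shares have no direction to reverse. The rule of any base inside the gene changed no value, and its values are among those that stayed. The single-gene counts that moved at 10 or more IP reads were those of Ythdf3 in replicate 1 (1) and, in replicate 2, of Ythdf1 (1), Ythdf2 (2), Ythdf3 (1) and Ythdc2 (5). Of the 27 significant clusters of replicate 2, 17 held fewer than 10 IP reads. The cause of these shifts was not tested.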
